A study of Caenorhabditis elegans with 2 samples.

Results

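The mitochondrial genome of Caenorhabditis elegans carries 36 genes in the Ensembl annotation of the WBcel235 assembly, and these 36, of 46926 annotated genes in all, are described here. They comprise 12 protein-coding genes, 2 ribosomal RNA genes and 22 transfer RNA genes, which are all those on that genome. The set was chosen with earlier results of these data known. The data are lists of regions called after chromatin immunoprecipitation (ChIP) of eGFP-tagged DAF-12 from whole larvae at the fourth larval stage (L4). The worms were strain OP222, which has the unc-119(ed3) III mutation and the wgIs222 insertion for tagged daf-12, with males and females pooled. There were 2 biological replicates of this 1 group and no untagged or mutant group, so the lists hold no contrast between conditions and no test between groups was possible. Every animal carried the insertion, and whole larvae were used, so no value can be tied to a tissue.

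The mitochondrial genome of C. elegans is a small circle on which all genes are read from the same strand. Transfer RNA genes sit between many of the longer genes. Its coding genes specify core subunits of the respiratory chain: ND1 to ND6 and ND4L of complex I, CYTB of complex III, COX1 to COX3 of complex IV, and ATP6 of the ATP synthase. The ribosomal RNAs of the small subunit (s-rRNA) and the large subunit (l-rRNA) and the transfer RNAs serve translation inside the organelle. DAF-12 is a nuclear steroid hormone receptor known for control of dauer entry and of developmental timing.

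A region in the lists has 1 summit, the base of highest enrichment, and 1 signal, the authors' own enrichment value. The scale of that value is not stated, so signals were compared within a list and never between lists. Read depth is unknown and the control library was not analysed here. Replicate 1 had 30000 regions, replicate 2 had 23934, and the list called on both replicates together (the pooled list) had 30000. Of these, 30, 27 and 28 regions lay on the mitochondrial genome. The authors label the pooled list as peaks and background, so not every region in it is a peak. Only 5.61% of its nuclear regions had a deposited q-value below 0.05. Nuclear medians, densities and shares of genes with a pooled summit therefore include background regions.

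The DNA under the strongest summits is shown first, because these summits had the highest pooled signals. Coordinates are those of ce11 (WBcel235), the strand is the plus strand, on which the genes are also read, and capitals run from the lowest to the highest of the pooled, replicate 1 and replicate 2 summits. The windows are the 4 with the largest pooled signal in 4 different genes, ND5 (chrM:12472-12579), ATP6 (chrM:2917-2984), CYTB (chrM:4643-4748) and COX2 (chrM:9655-9838), all within coding sequence.
ND5: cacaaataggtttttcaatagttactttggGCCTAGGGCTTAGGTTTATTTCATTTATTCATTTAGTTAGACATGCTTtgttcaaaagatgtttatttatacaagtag
ATP6: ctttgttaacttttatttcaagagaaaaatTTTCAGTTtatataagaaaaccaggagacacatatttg
CYTB: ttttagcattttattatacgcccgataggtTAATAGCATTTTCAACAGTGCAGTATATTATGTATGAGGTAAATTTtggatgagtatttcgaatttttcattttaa
COX2: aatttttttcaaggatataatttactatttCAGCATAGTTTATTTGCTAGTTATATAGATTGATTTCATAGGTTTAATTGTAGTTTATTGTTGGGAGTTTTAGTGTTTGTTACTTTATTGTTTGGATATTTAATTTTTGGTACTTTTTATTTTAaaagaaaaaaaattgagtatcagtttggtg
The capitals span 8 bases in ATP6, 46 in CYTB, 48 in ND5 and 124 in COX2. The same 4 genes held the 4 highest coding signals in each list, as given below, but how closely the replicates placed those summits differed from gene to gene.

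The strongest regions of each list by signal were mitochondrial. With no untagged group and no analysis of the control library, whether these signals reflect DAF-12 binding was not tested. In the pooled list and in each replicate list taken alone, the first 24 regions by signal were mitochondrial and the region at rank 25 was the first nuclear one. In replicate 1 the median mitochondrial signal was 88.2 and the range 12.2 to 274.3, where the 29970 nuclear regions had a median of 4.19 and a highest value of 36.6. In replicate 2 the mitochondrial median was 61.8 and the range 3.67 to 145.8, while the 23907 nuclear regions reached 18.4 at most and had 2.96 as their median. The pooled mitochondrial median was 147.9 and the range 17.9 to 385.4, while the 29972 nuclear regions reached 53.1 at most and had 5.74 as their median. The mitochondrial and nuclear ranges overlapped only through the weakest mitochondrial regions, 4 in the pooled list, 6 in replicate 1 and 3 in replicate 2. All 28 pooled mitochondrial regions had a deposited q-value below 0.05, where 5.61% of the nuclear pooled regions did. Of the 28, 27 were in the list thresholded for reproducibility between replicates, where 0.0701% of the nuclear pooled regions were.

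The regions covered much of the small genome. They took in 56.8% of its 13794 bases in the pooled list, 60.6% in replicate 1 and 48.1% in replicate 2, at 20.3, 21.7 and 19.6 regions per 10 kb. The nuclear genome had 2.99, 2.99 and 2.38 regions per 10 kb in the same lists. Neighbouring mitochondrial summits were never closer than 201, 200 and 201 bp, and the smallest spacing between nuclear summits was 199 bp in each list. Regions had a set width of 304 bp in the pooled and replicate 1 lists and 260 bp in replicate 2, except for 2, 1 and 2 shorter mitochondrial regions in the pooled, replicate 1 and replicate 2 lists. Because of that width and spacing, a short gene can lack a summit and still be covered by a region centred next to it.

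Of the 36 genes, 14 held at least 1 summit in the pooled list, 14 in replicate 1 and 14 in replicate 2. Over all nuclear genes, of every biotype, 23% held a summit in the pooled list, 23% in replicate 1 and 20.7% in replicate 2. The member count is made up almost wholly of coding genes. For them it was 11 of 12 in each list, where 48.3% of nuclear protein-coding genes held a pooled summit. The nuclear ones are longer, with a median of 2027 bp against 822.5 bp for the mitochondrial ones. Coding genes take up 75.4% of the mitochondrial bases. They held 82.1% of the summits in the pooled list, 83.3% in replicate 1 and 74.1% in replicate 2, near that share. Since the nuclear genome has fewer regions per 10 kb, nuclear shares of genes with a summit are not a like-for-like background. The same 11 coding genes held a summit in both replicates, and 28.1% of nuclear protein-coding genes did. The coding gene without a summit was ND4L (chrM:549-783), the shortest of the 12, and no region of any list touched it. Its nearest summits lay 168 bp away in the pooled list, 167 bp in replicate 1 and 159 bp in replicate 2, all inside s-rRNA.

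**Figure D1:**
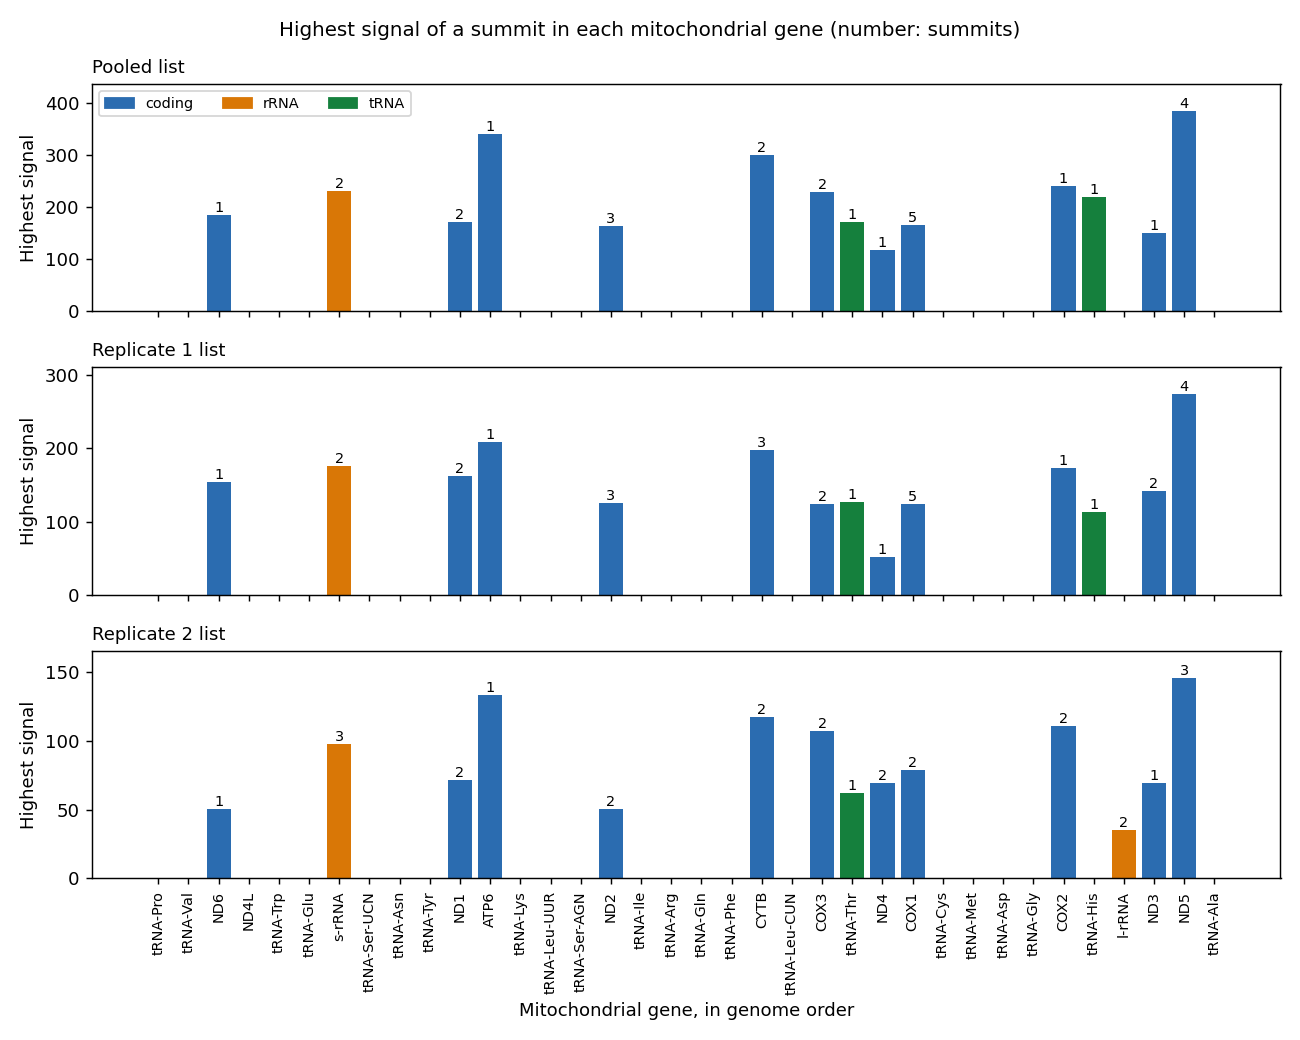
Highest signal of any summit inside each of the 36 mitochondrial genes, in genome order along the x axis, with 1 panel per list and the y axis in the authors' signal units of that list. Bars are coloured by gene class, the number over a bar counts the summits in the gene, and genes without a bar hold none; ND5 has the tallest bar in every panel, at 385.4, 274.3 and 145.8.

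Complex I genes held 12 pooled summits in 5647 bp, 13 in replicate 1 and 11 in replicate 2, and had both the strongest and the weakest of the coding genes with a summit. ND5 (chrM:11691-13272), the largest subunit of complex I encoded here, had its highest signal at 385.4 in the pooled list, 274.3 in replicate 1 and 145.8 in replicate 2, the first rank of each list. ND6 (chrM:113-549) had 185.3, 153.6 and 50.5 in the same order, and ND1 (chrM:1763-2635) had 172.4, 162.7 and 71.1. ND2 (chrM:3389-4269) had 163.4, 126.1 and 50.3. ND3 (chrM:11356-11691) had 150.0, 141.4 and 69.3, and ND4 (chrM:6506-7808) had 117.3, 52.1 and 69.0. ND4 was thus last of the 11 coding genes in the pooled list and in replicate 1 and at place 9 in replicate 2, where ND6 was at place 10 and ND2 at place 11.

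The other complexes had fewer genes and higher minima, but a minimum over fewer genes tends to be higher, so the minima are not like for like. ATP6 (chrM:2634-3235), a subunit of the proton channel of the ATP synthase, held 1 summit in each list, with signals of 340.2 in the pooled list, 208.3 in replicate 1 and 133.5 in replicate 2, rank 2 in all of them. CYTB (chrM:4504-5621), the cytochrome b of complex III, had 299.7, 198.1 and 117.3 in the same order, rank 3 in all of them. COX2 (chrM:9649-10348), which carries the copper centre that accepts electrons from cytochrome c, had 241.5, 173.9 and 110.8. COX3 (chrM:5678-6449) had 230.0, 124.4 and 106.7, and COX1 (chrM:7827-9428), the catalytic subunit of complex IV, had 166.6, 124.6 and 78.8. COX3 was at place 5 of the coding genes in the pooled list and in replicate 2 and at place 10 in replicate 1.

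The order of coding genes by highest signal was the same at its upper end. ND5, ATP6, CYTB and COX2 took places 1 to 4, in that order, in the pooled list and in both replicates, and those 4 were the only coding genes with the same place in both replicates. Over the 11 genes with a summit in both, Spearman's rank correlation between the replicates was 0.69 and Pearson's r was 0.73. These are descriptions over genes that share a library and neighbouring fragments, and no p-value is given. The rank correlation was 0.24 when the median signal of a gene's summits took the place of the highest, and 0.46 in the lists the authors made on the older ce10 build.

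**Figure D2:**
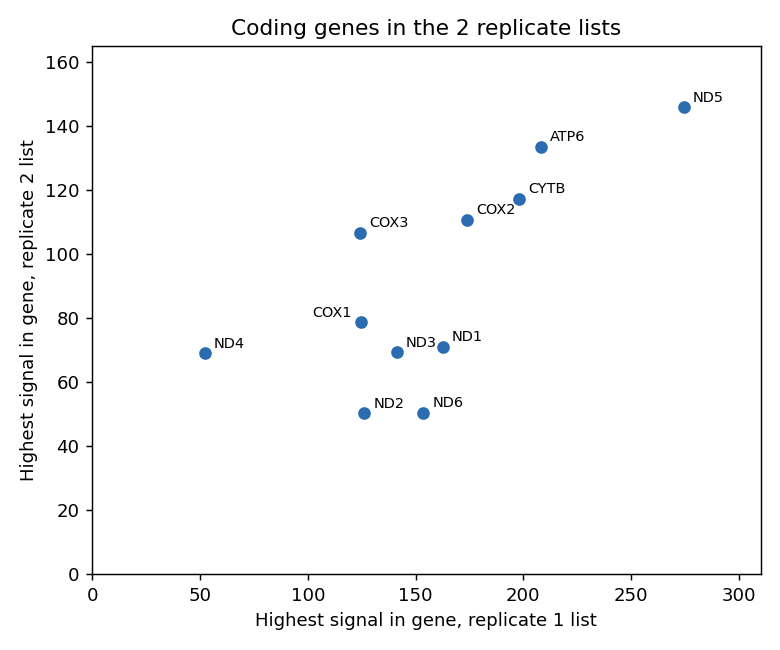
Highest signal of each of the 11 coding genes with a summit in both replicates, with the replicate 1 list on the x axis and the replicate 2 list on the y axis, each in its own signal units. The 4 genes at the upper right, ND5, ATP6, CYTB and COX2, hold the same order on both axes, and ND6 and ND2 sit at the bottom with 50.5 and 50.3 in replicate 2.

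Longer coding genes held more summits and not higher ones. More summits in a longer gene are to be expected, because coding genes held a share of summits near their share of bases. Spearman's rank correlation of gene length with the number of summits over the 12 coding genes was 0.81 in the pooled list, 0.74 in replicate 1 and 0.86 in replicate 2. With the highest signal it was 0.01, -0.12 and 0.19 over the 11 genes with a summit. COX1, the longest at 1602 bp, held 5 summits in the pooled list, 5 in replicate 1 and 2 in replicate 2, whereas ATP6 at 602 bp held 1 in each. ND5 at 1582 bp held 4, 4 and 3.

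Within genes, the replicates placed summits closely in some places and not in others. In ND5 the second strongest position of replicate 2 was the same base, 12035, in all 3 lists, with signals of 71.1 in the pooled list, 53.8 in replicate 1 and 73.2 in replicate 2. That base is the capital in the window chrM:11995-12075, which was chosen for display after this value was seen.
ND5 at 12035: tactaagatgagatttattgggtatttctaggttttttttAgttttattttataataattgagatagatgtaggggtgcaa
In s-rRNA (chrM:898-1593) a summit lay at 1582 in the pooled list, 1582 in replicate 1 and 1583 in replicate 2, 10 to 11 bases inside the 3′ end of the gene. In CYTB the second pooled summit lay at 5211, with 5208 in replicate 1 and 5211 in replicate 2.

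Over the whole genome, the 30 summits of replicate 1 lay a median of 44.5 bp from the nearest summit of replicate 2, with a range of 0 to 366 bp. Of the 30, 8 lay within 10 bp (26.7%), 16 within 50 bp (53.3%) and 18 within 100 bp (60%). For comparison, 4.11% of all mitochondrial positions lie within 10 bp of a replicate 2 summit, 19.8% within 50 bp and 39.3% within 100 bp, with a median of 130 bp. The 10 strongest summits of replicate 1 had a median distance of 41 bp and the 10 weakest one of 111.5 bp. Of the mitochondrial regions of replicate 1, 29 of 30 overlapped a replicate 2 region by at least 1 bp, and 26 of 27 did in the other direction. For nuclear regions the shares were 18.2% and 22.3%. However, 90.1% of all mitochondrial positions lie within 280 bp of a replicate 2 summit, near the distance at which regions of 304 and 260 bp overlap. The nuclear lists are also sparser, at 2.99 and 2.38 regions per 10 kb against 21.7 and 19.6, so these overlap shares are not like for like.

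**Figure D3:**
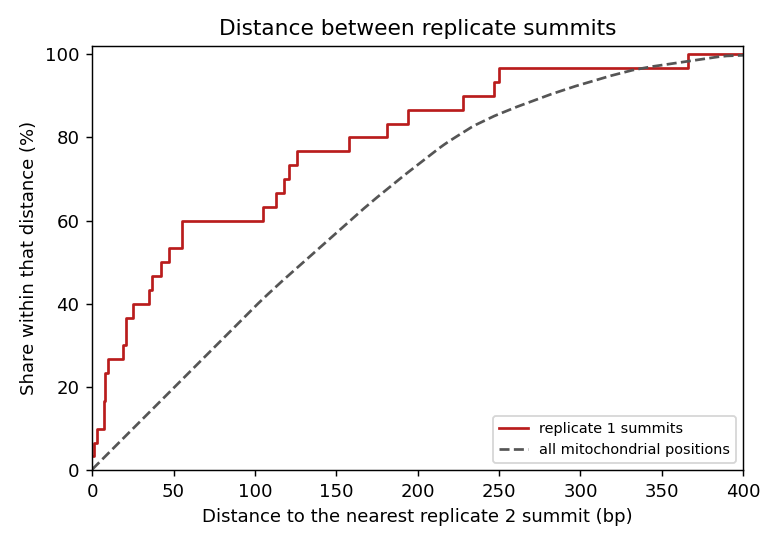
Cumulative share (y axis, %) of the 30 replicate 1 summits that lie within a given distance (x axis, bp) of the nearest replicate 2 summit, with the same share for every position of the mitochondrial genome as a dashed line. The summit line stands above the dashed line up to beyond 200 bp, with 53.3% against 19.8% at 50 bp.

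Of the 13 genes with a summit in both replicates, 8 had their strongest summits within 55 bp of each other and 5 had them 113 to 640 bp apart. The distances were 7 bp in ATP6, 8 bp in ND2, 21 bp in COX3, 21 bp in the threonine tRNA gene, 35 bp in CYTB, 37 bp in ND4, 47 bp in ND5 and 55 bp in ND6. The 5 were COX2 at 113 bp, ND3 at 158 bp, ND1 at 416 bp, COX1 at 586 bp and s-rRNA at 640 bp. In ND1 the order of the summits changed: replicate 1 had 162.7 at 2065 and 21.2 at 2491, whereas replicate 2 had 32.3 at 1815 and 71.1 at 2481. In s-rRNA the summit near the 5′ end, at 950 in replicate 1 and 942 in replicate 2, had 119.1 and 97.8, and the one near the 3′ end had 176.6 and 38.1. The 3′ end was therefore the stronger one in replicate 1 and the 5′ end in replicate 2. In COX1 the strongest replicate 1 summit lay at 7950 with 124.6, and the strongest of replicate 2 lay at 8536 with 78.8, beside one of 103.0 at 8517 in replicate 1.

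**Figure D4:**
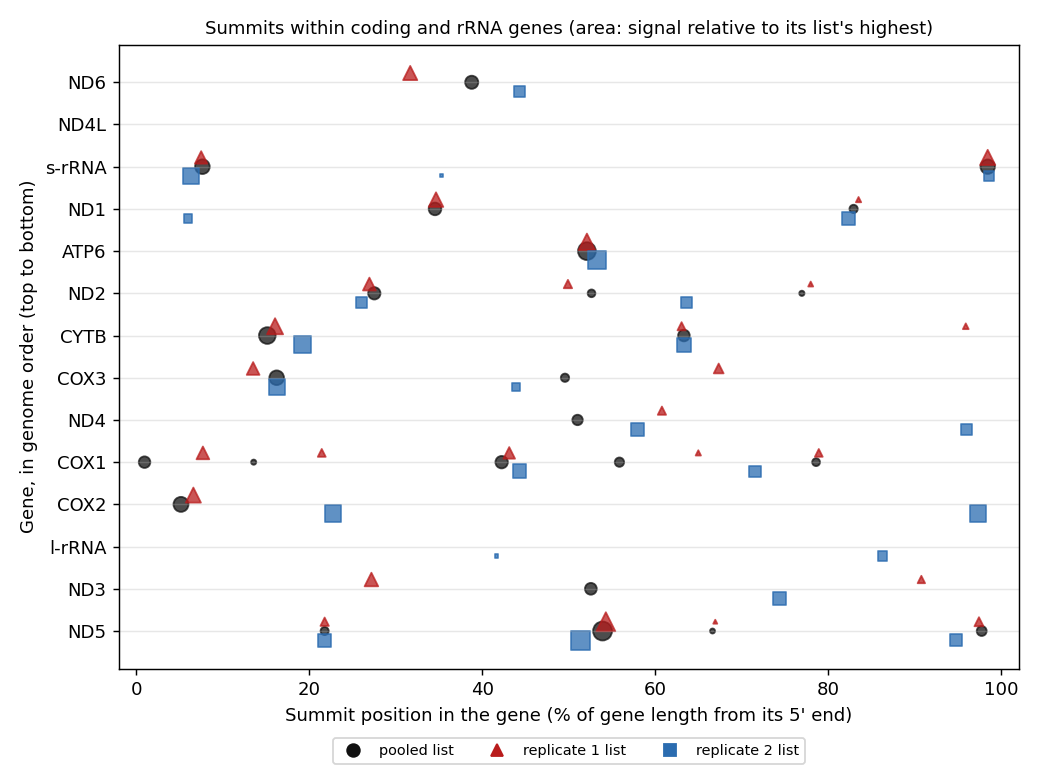
Position of each summit along the coding and rRNA genes, as a percent of gene length from the 5′ end on the x axis, with genes in genome order from top to bottom and a symbol for each list. Symbol area is the signal relative to the highest of the same list, and the symbols of ATP6 lie close together and those near 22% of ND5 coincide, while those of ND1, COX2 and ND3 are spread.

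Summits fell along the whole length of the coding genes. Of the 23 pooled summits in coding genes, 6 lay in the first 25% of the gene and 4 in the last 25%. In replicate 1 these were 6 and 6 of 25, and in replicate 2 they were 5 and 4 of 20. The pooled summits nearest to the start of a coding gene were those of COX1 at 7842, 15 bp into the Ensembl gene, and COX2 at 9685, 36 bp into the gene. The RefSeq annotation of the same assembly starts COX1 at 7845, so that summit lies just outside it there.

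The rRNA genes differed from each other. The s-rRNA gene held 2 pooled summits of 230.3 and 224.3, ranks 5 and 7, and replicate 2 had a further summit of 3.67 at 1143, its weakest mitochondrial one at rank 6801. The l-rRNA gene (chrM:10403-11354) held no summit in the pooled list or in replicate 1, where 10.8% and 17.1% of its length lay under regions. In replicate 2 it held summits of 35.4 at 11223 and 4.34 at 10799, and regions covered 60.5% of it. It is the only gene of the 36 with a summit in replicate 2 alone.

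Among the 22 tRNA genes, of 52 to 62 bp, 2 held a pooled summit, and 4.08% of nuclear tRNA genes did, at a median length of 72 bp. The nuclear regions are sparser, so these shares are not like for like. The 22 tRNA genes take up 8.83% of the mitochondrial bases. They held 7.14% of the summits in the pooled list, 6.67% in replicate 1 and 3.70% in replicate 2. The threonine tRNA gene (chrM:6450-6504), between COX3 and ND4, held a summit at 6455 with 171.2 in the pooled list, at 6460 with 127.0 in replicate 1 and at 6481 with 61.8 in replicate 2. The histidine tRNA gene (chrM:10348-10401), between COX2 and l-rRNA, held one at 10354 with 219.9 in the pooled list and with 113.9 in replicate 1. The nearest replicate 2 summit, with 110.6, lay at 10329, inside the 3′ end of COX2. The other 20 held no summit in any list, and 9 were not covered by a single base of a region: those for proline, lysine, isoleucine, arginine, glutamine, phenylalanine and cysteine, the UUR leucine gene and the AGN serine gene. Of these 9, 3 stand together at the start of ND2 (chrM:3244-3416) and 4 stand together between ND2 and CYTB (chrM:4269-4502). Their distances from the nearest pooled summit were 215 to 297 bp in the first cluster and 171 to 264 bp in the second. The proline gene (chrM:1-55) lay only 50 bp from the pooled summit at 13745, counted round the circle. The region of that summit is cut at 13794, the end of the numbered sequence, so it could not reach the proline gene. In contrast, 8 tRNA genes lay wholly under a pooled region, 8 under a replicate 1 region and 6 under a replicate 2 region.

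DAF-12 is known to bind the hexamers AGTGCA and AGGACA, and the mitochondrial genome holds 8 copies of them, counting both strands. Within 100 bp of the summit, 4 of 28 pooled summits had a copy (14.3%), 4 of 30 in replicate 1 (13.3%) and 5 of 27 in replicate 2 (18.5%). Of all 13794 windows of 201 bp on the mitochondrial genome, 11.4% hold one, and so do the windows of 11.1% of the nuclear pooled summits. With 200 bp to each side the direction turned, at 14.3% of pooled mitochondrial summits against 23.0% of all mitochondrial windows, and with 50 bp it was 7.14% against 5.57%. The pooled summits with a copy were the strongest of ND5, ATP6 and CYTB and the weaker COX3 summit at 6060, with signals of 385.4, 340.2, 299.7 and 74.2. The 3 copies closest to a pooled summit are printed with the hexamer in capitals, from CYTB (chrM:4669-4714), COX3 (chrM:6007-6052, on the minus strand, so that the plus strand reads TGCACT) and ND5 (chrM:12442-12487).
CYTB: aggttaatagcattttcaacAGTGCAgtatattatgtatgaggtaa
COX3: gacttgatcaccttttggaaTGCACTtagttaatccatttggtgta
ND5: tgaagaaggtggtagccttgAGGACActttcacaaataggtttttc
The CYTB copy lay 18 bp from the pooled summit, 8 bp from that of replicate 1 and 27 bp from that of replicate 2. The COX3 copy lay 31, 168 and 13 bp away in that order, and the ND5 copy 79, 85 and 38 bp away. A match says only that these letters occur in the window.

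The windows round mitochondrial summits were close in base composition to the rest of the mitochondrial genome. Their median GC content within 100 bp was 24.9% in the pooled list, with a range of 13.9% to 33.3%, against a median of 23.9% and a range of 0% to 35.3% over all mitochondrial windows. Of the 28, 16 lay above that median. Nuclear pooled summits had a median of 32.8%. Signal and GC content had a Spearman's rank correlation of 0.25 over the 28 summits, which is given as a description only.

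**Figure D5:**
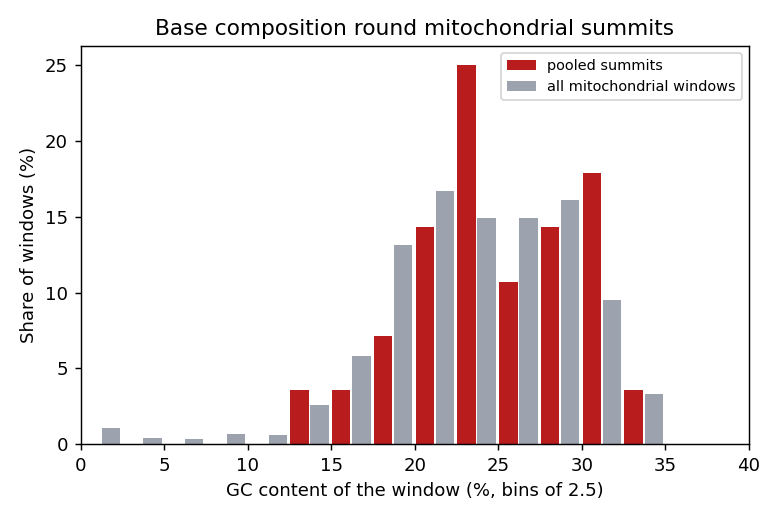
Share of windows (y axis, %) by their GC content (x axis, %, bins of 2.5) for the 28 pooled mitochondrial summits and for all 13794 windows of 201 bp on the mitochondrial genome. Both sets of bars lie mainly between 15% and 35%, and the windows below 12.5% hold no summit.

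Reads from nuclear copies of mitochondrial DNA could be placed on either genome, so the sequence was searched for such copies. Outside the AT-rich noncoding region, 8 nuclear matches were found, and 1 of them had at least 95% identity over at least 50 bp. That match joins CYTB (chrM:4903-5028) to chromosome X at 96% identity over 126 bp. No pooled summit lay inside any of the 8. The strongest CYTB region ends before it, at 4860 in the pooled list and 4790 in replicate 2. Its summit, at 4673 and 4718 in those lists, lies nearer to its start, at 4617 and 4699, which is the side away from the match. This CYTB region is one of 2 regions in each of those lists with less than the set width, at 244 bp and 92 bp. The other is the region cut by the end of the numbered sequence at 13794. Whether the nuclear copy bears on the width of the CYTB region was not tested.

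Most subunits of the respiratory chain are encoded in the nucleus, and their genes were set beside the mitochondrial ones. Of 43 nuclear genes for respiratory chain and ATP synthase subunits, 22 had a pooled summit between 1 kb upstream and 200 bp downstream of a start, and of 13 genes for mitochondrial DNA upkeep and protein quality control, 8 did. Together these are 30 of 56 (53.6%), and the share over all nuclear protein-coding genes was 40.6%. In replicate 1 the count was 26 of 56, where 39.7% of nuclear protein-coding genes had such a summit. In replicate 2 it was 24 of 56, against 33.1%. Of the 43 and 13 genes, 7 and 6 had one in both replicates, and the share of all protein-coding genes that did was not calculated. None of the 56 had a thresholded peak, but the thresholded list holds only 21 nuclear regions in all, so this says little about these genes. Among the 13 upkeep and quality control genes the largest pooled signals were 13.0 at hsp-60, which encodes the mitochondrial chaperonin, 11.6 at atfs-1, the transcription factor of the mitochondrial unfolded protein response, and 10.1 at clpp-1, a mitochondrial protease subunit, and these 3 had a summit in both replicates. Among the 43 subunit genes they were 10.9 at cox-6A of complex IV, 10.7 at cyc-1, the cytochrome c1 of complex III, and 8.55 at nduf-11 of complex I. Replicate 2 had no summit in the window of cyc-1, and both replicates had one at cox-6A and nduf-11. All of these are below the weakest pooled mitochondrial region, at 17.9. A summit in both replicates was counted here whatever its signal. In replicate 2 the hsp-60 and cox-6A summits had signals below 2.96, the nuclear median of that list. Those of atfs-1, clpp-1 and nduf-11 were above it. With a q-value below 0.05 the count was 5 of 56, namely hsp-60, atfs-1, clpp-1, cox-6A and cyc-1, where 2.83% of nuclear protein-coding genes passed.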

How the data were processed

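The peak lists were used as deposited by the authors: 1 per replicate, 1 pooled and 1 thresholded for reproducibility, on ce10 and ce11. Each region has a deposited signal on an unstated scale, a deposited −log10 q-value and a summit offset. According to the text files beside the lists, regions were called from ChIP alignments with a control. No source used here names the caller, aligner, versions or reproducibility threshold. Read depth is unknown, so no counting interval is given.

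Coordinates are ce11. Each summit was assigned to the gene that holds it (Ensembl release 115, WBcel235), with symbols from RefSeq by position for all 36 genes. Hexamers were searched within 100 bp of summits, and nuclear copies with blastn 2.17.0 (e-value 1e-05). Python 3.11.15, numpy 2.4.6, pandas 2.3.3 and scipy 1.17.1 were used, and gene assignment and hexamer search were tested on simulated data. Every coding and rRNA gene and every tRNA gene with a summit is given with values, and the 3 genes of largest signal from each nuclear list. The members and lists were chosen with earlier results of these data known. No test was made, because there is no contrast and regions are not replicates.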

Additional observations from a re-analysis of the deposited data

How the results depend on the processing

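Of 36 combinations of result and alternative, 13 moved the value. A count had to move by over 1.5 times, and a share of summits beyond its Wilson interval. That interval treats summits as independent, which they are not, and takes no account of the share over all windows. For half-sites, a value labelled as not moved is therefore no sign of stability. Any difference in a median distance, a rank correlation or a median GC content was taken as a move. The upper 50% by signal has 14 mitochondrial regions by construction. Counting any overlap of at least 1 bp gave 25 genes in place of 14, and 22 in both replicates in place of 13, since regions are longer than tRNA genes. The median distance between replicate summits, 44.5 bp, was 37 bp from replicate 2 to replicate 1, 47 bp in the upper 50% by signal and 46 bp on ce10. The rank correlation of coding genes between replicates, 0.69, was 0.24 with the median signal per gene, 0.56 with the sum and 0.46 on ce10; the cause was not tested. The median GC content was 24.3% and 24.7% with 50 and 200 bp to each side. The nuclear genes of mitochondrial function, 30, became 5 at a q-value below 0.05 and 48 within 2 kb, where 74.4% of nuclear protein-coding genes had a summit. With 1 replicate left out, regions were 27 to 30 and summits with a half-site 13.3% to 18.5%. With 50 and 200 bp to each side, 7.14% and 14.3% of pooled summits held one, against 5.57% and 23.0% of all mitochondrial windows. RefSeq gene limits, added after seeing the data, left 14 and 13 genes. No paired analysis was possible because the series has only 1 group. Without read depths, no limit from depth can be given.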

Other observations

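Outside the genes, RefSeq marks an AT-rich region (chrM:13329-13794) and an intergenic stretch between ND4 and COX1 (chrM:7736-7844). The AT-rich region, of 466 bp and 6.87% GC, held 1 summit in each list, at 13745 in the pooled list and in replicate 1 and at 13752 in replicate 2. Its signals were 17.9, 12.6 and 4.66, ranks 63, 87 and 2924, the only mitochondrial summit outside an Ensembl gene in any list. It was the weakest mitochondrial region of the pooled list, and the blastn search found 1614 nuclear matches of AT-rich sequence inside this stretch. The intergenic stretch, of 109 bp, held a summit of 143.6 at 7842 in the pooled list and one of 50.7 at 7756 in replicate 2, and none in replicate 1. The Ensembl limits of ND4 and COX1, which reach further, place these summits in COX1 and ND4.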
